A study of Mus musculus with 6 samples.

Results

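The 36 probes described here read 19 Wnt ligands, 9 Frizzled receptors and 4 members each of the Sfrp and Dkk families of secreted inhibitors, 1 probe for each gene. They were chosen with earlier results of these data known, by gene name, as every probe annotated Wnt, Fzd, Sfrp or Dkk with a number. There were 23466 probes in all, of which 16625 carried a symbol, for 16384 genes. Of 37 mouse RefSeq genes with such names, Fzd10 had no probe in the table and was not analysed here. The cells were neural stem cells from the brain of C57BL6 mice at postnatal day 0 (P0), cultured without treatment in DMEM/F12 that held heparin and the growth factors bFGF and EGF. There were 2 arrays for each of 3 genotypes: Ecrg4 wt (wild type), Ecrg4 hetero (heterozygous) and Ecrg4 homo (homozygous for the changed allele). Ecrg4 encodes a small secreted protein. The sources used here give neither how the allele was made nor whether both arrays of a genotype stand for different mice or culture dishes, so a p-value measures only array-to-array spread, possibly technical.

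Wnt proteins are lipid-modified secreted ligands that bind the cysteine-rich domain of Frizzled receptors on the cell surface. With the coreceptors Lrp5 and Lrp6 this stabilises beta-catenin, which switches on target genes with Tcf/Lef factors; with other coreceptors it acts on cell polarity and calcium. Sfrp proteins carry a Frizzled-like domain that binds Wnts outside the cell, and Dkk1 blocks Lrp5 and Lrp6. In the developing brain these signals take part in patterning, progenitor division and axon guidance.

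Among these genes the ligand Wnt7a gave the clearest difference. Its probe was lower on the heterozygous arrays than on the other arrays, and it rose 2.15-fold from heterozygous to homozygous (95% interval 1.63 to 2.84, n = 2 arrays each, limma adjusted p = 0.0298). The other call was a rise of the receptor Fzd6 from wild type to heterozygous, on a probe whose values were all far under the level used here as background. No member passed between homozygous and wild type. The receptor Fzd9, brightest in heterozygous cells, and the ligand Wnt5a, brightest in wild-type cells, came near the threshold without passing it.

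Values are 1-colour probe intensities in arbitrary units, whose median is 30 on each array as deposited. Probes differ in how strongly they bind, so a value was compared between arrays and not between genes. As a stand-in for unexpressed genes, the 95th percentile of 663 olfactory receptor probes was taken on each array; it lay between 50.5 and 57.6, and a probe under it is called dim. Arrays of 1 genotype correlated at r = 0.989 to 0.994 across 20434 probes (a correlation across probes, not replicates). The wild-type arrays stood furthest apart, with 4.05% of probes over 2-fold different. Wild-type array 2 lay closer to heterozygous array 1, with 2.82% of probes over 2-fold different and a slightly higher correlation. The spread within wild type thus exceeded the difference of that pair across genotypes, which limits every comparison with wild type. Of 16 measured neural stem cell markers, 15 exceeded the olfactory receptor level on all 6 arrays. The Ecrg4 probe, a check of the labels, read 112.9 and 154.9 in wild type, 345.5 and 373.9 in heterozygous and 1.4 and 1.3 in homozygous arrays. The last values match their label, while the heterozygous arrays exceeded the wild-type arrays, so every direction given here refers to the arrays as labelled.

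Few of the member probes stood above the olfactory receptor level. Fzd3 and Fzd9 exceeded it on all 6 arrays. Another 7 probes exceeded it on some arrays, namely Wnt5a, Wnt7a, Wnt11, Fzd2, Fzd4, Sfrp1 and Dkk1. The remaining 27 were dim on every array: 16 Wnt, 5 Fzd, 3 Sfrp and 3 Dkk probes. A blank cell on at least 1 array kept Wnt1, Wnt8a, Wnt16, Dkk2 and Dkk4 out of the tests; where they had a value it lay between 1.1 and 2.7. The other 31 members were tested. The level is a stand-in, so a dim probe does not show that its transcript was missing.

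**Figure D1:**
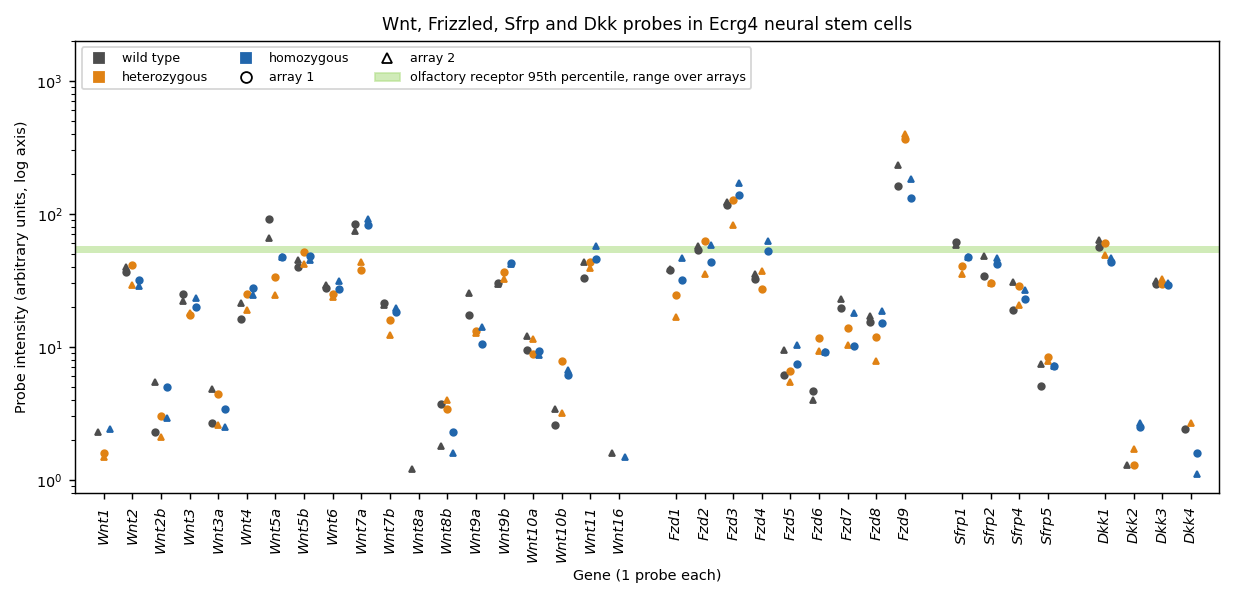
Intensity of each of the 36 member probes (log axis, arbitrary units) on each array, by genotype (colour) and array number (symbol); the band spans the olfactory receptor 95th percentile over the arrays, 50.5 to 57.6. Fzd3 and Fzd9 lie above the band on all 6 arrays, and 27 probes were under the level of their own array on every array.

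Promoters are shown for the 4 genes whose values carry the comparisons and which had an entry among the RefSeq promoters, Wnt7a, Fzd9, Fzd4 and Dkk1; Wnt5a, Fzd3, Fzd6 and Sfrp1 are named only. Each is the 250 bases before the start of the gene, 5′ to 3′ on the gene's strand, from RefSeq with the build GRCm38.p6: chr6:91411354-91411603 on the minus strand for Wnt7a, chr5:135251048-135251297 on the minus strand for Fzd9, chr7:89404116-89404365 on the plus strand for Fzd4 and chr19:30549497-30549746 on the minus strand for Dkk1. Capitals mark the core letters read by Tcf/Lef factors, CTTTGA, on either strand.
Wnt7a: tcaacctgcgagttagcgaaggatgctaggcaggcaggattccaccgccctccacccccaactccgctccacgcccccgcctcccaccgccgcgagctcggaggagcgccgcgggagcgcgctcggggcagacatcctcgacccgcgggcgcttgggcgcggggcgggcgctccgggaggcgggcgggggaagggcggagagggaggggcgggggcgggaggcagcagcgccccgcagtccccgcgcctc
Fzd9: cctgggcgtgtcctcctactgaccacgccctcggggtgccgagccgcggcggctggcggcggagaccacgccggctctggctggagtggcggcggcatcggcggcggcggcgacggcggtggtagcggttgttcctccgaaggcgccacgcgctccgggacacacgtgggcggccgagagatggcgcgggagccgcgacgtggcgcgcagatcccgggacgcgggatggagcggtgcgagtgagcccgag
Fzd4: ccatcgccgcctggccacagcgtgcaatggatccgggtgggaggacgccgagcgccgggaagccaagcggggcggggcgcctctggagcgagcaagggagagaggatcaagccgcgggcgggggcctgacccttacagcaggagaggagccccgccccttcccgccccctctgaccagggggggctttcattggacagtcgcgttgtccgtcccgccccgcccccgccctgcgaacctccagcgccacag
Dkk1: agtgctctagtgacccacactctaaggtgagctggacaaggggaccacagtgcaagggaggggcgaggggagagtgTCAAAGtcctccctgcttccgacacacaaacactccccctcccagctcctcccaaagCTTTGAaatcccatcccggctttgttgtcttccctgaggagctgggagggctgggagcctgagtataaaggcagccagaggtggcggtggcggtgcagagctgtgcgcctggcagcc
In these windows Wnt7a, Fzd9 and Fzd4 held no copy of the motif. Dkk1, which is known as a target of beta-catenin, held it once on each strand, with first bases 117 and 174 before the start. The 24 member genes with a RefSeq promoter had 27 windows, of which 4 held at least 1 copy (14.8%), the others being those of Fzd1, Wnt5b and Wnt11, beside 13.8% of all 32851 windows. The windows of Wnt7a and Fzd9 were rich in G and C, at 77.6% and 76.4%, and held 34 and 42 CpG dinucleotides, beside medians of 52.4% and 6 over all windows. A match describes the letters only, and no match says only that they are not in this window.

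Ligands come first. Wnt7a supports the growth of neural progenitors and acts on brain endothelium. Its probe read 84.2 and 74.2 in wild type, 37.7 and 43.7 in heterozygous and 82.7 and 92.2 in homozygous arrays. The heterozygous arrays were the low pair and overlapped neither of the other genotypes, while wild type and homozygous overlapped. The difference between homozygous and heterozygous was 1.11 ± 0.16 on the log2 scale (standard error of the limma fit), and the F test over the 3 genotypes also passed (adjusted p = 0.0451). That F call was lost under median centring, quantile scaling, filled blanks and the replicate block, and with any single array but wild-type array 2 left out. Between heterozygous and wild type it was -0.96 ± 0.16, which did not pass (adjusted p = 0.0834). Between homozygous and wild type it was 0.14 ± 0.16, with a 95% interval of the fold of 0.838 to 1.46. Both heterozygous values were dim; with those arrays set at their olfactory receptor level, the homozygous arrays were at least 1.67-fold brighter. The rise from heterozygous to homozygous did not pass without heterozygous array 1 (adjusted p = 0.136) or 2 (0.117), without homozygous array 1 (0.171) or 2 (0.227), with blank cells filled (0.0501) or with the replicate block (0.0723). Its log2 fold change lay between 0.87 and 1.21 over all alternatives.

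Wnt5a is the best known ligand of the branches that do not use beta-catenin. It read 90.9 and 65.6 in wild type, 33.3 and 24.4 in heterozygous and 47.4 and 47.1 in homozygous arrays. The 3 genotypes did not overlap: wild type was highest, and heterozygous lowest. The log2 fold change between heterozygous and wild type was -1.44 ± 0.23, the largest of any member in that comparison, and missed the threshold (limma adjusted p = 0.0677). It passed with an added pseudocount (0.0231) and with an intensity trend (0.00591). It also passed over brighter probes alone (0.0133), a filter that Wnt5a meets only through wild type, where it is high. Between homozygous and wild type it was -0.71 ± 0.23 (adjusted p = 0.185), and between homozygous and heterozygous 0.73 ± 0.23 (0.171). With the dim heterozygous arrays set at the olfactory receptor level, wild type was at least 1.48-fold brighter.

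The remaining Wnt probes were dim apart from Wnt11, which exceeded the level on 1 array (57.1 on homozygous array 2). Wnt7b, close kin of Wnt7a, read 21.3 and 20.6 in wild type, 16 and 12.2 in heterozygous and 18.3 and 19.5 in homozygous arrays. Its heterozygous arrays were the low pair here too, with -0.58 ± 0.18 against wild type (adjusted p = 0.279) and no call. Wnt9a read 17.3 and 25.6 in wild type, against 13.2 and 12.7 in heterozygous and 10.6 and 14.2 in homozygous arrays. Wnt9b went the other way, from 30.4 and 29.8 in wild type to 42.5 and 42.1 in homozygous arrays (0.49 ± 0.15, adjusted p = 0.166). The other tested Wnt probes, Wnt2, Wnt2b, Wnt3, Wnt3a, Wnt4, Wnt5b, Wnt6, Wnt8b, Wnt10a and Wnt10b, had values between 1.6 and 52.0 and passed in no comparison.

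Some of these ligand genes lie next to each other among the protein-coding genes of the genome: Wnt6 and Wnt10a on chromosome 1, Wnt3a and Wnt9a as well as Wnt9b and Wnt3 on chromosome 11, and Wnt10b and Wnt1 on chromosome 15. Neighbours could differ in order. Wnt3 had its lowest readings in heterozygous arrays, 17.4 and 17.9, against 24.8 and 22.2 in wild type, while its neighbour Wnt9b read 36.3 and 32.3 there, above its wild-type arrays. Wnt3a and Wnt10b read under 8 on every array, and no tested gene of these pairs passed.

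Of the receptors, Fzd9, a Frizzled expressed in neural precursors, was the only member whose 6 values all exceeded even the 99th percentile of the olfactory receptor probes. It read 162.5 and 231.7 in wild type, 363.5 and 398.9 in heterozygous and 132.1 and 182.9 in homozygous arrays. The heterozygous arrays were the high pair, and the other genotypes overlapped, so the order was the reverse of Wnt7a. The log2 fold change was -1.29 ± 0.24 between homozygous and heterozygous, or 2.45-fold higher in heterozygous, with a limma adjusted p of 0.0537 that misses the threshold. It was 0.97 ± 0.24 between heterozygous and wild type (adjusted p = 0.199). The difference between homozygous and heterozygous passed under 10 of 16 alternatives, with adjusted p from 0.00477 to 0.273, and it did not pass without heterozygous array 1 (0.163) or 2 (0.236) or homozygous array 1 (0.273) or 2 (0.172). All 3 other scalings of the arrays were among the 10, with 0.0269 under median centring, 0.0346 under quantile and 0.0338 under cyclic loess scaling.

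Fzd3, which guides axons and acts in planar polarity, read 116.8 and 123.2 in wild type, 127.5 and 82.7 in heterozygous and 138.5 and 169.4 in homozygous arrays. The homozygous arrays were the highest, and the spread within heterozygous was as wide as the gap between genotypes (0.58 ± 0.24 between homozygous and heterozygous, adjusted p = 0.277). Fzd4, the receptor of the non-Wnt ligand Norrin, read 32.1 and 35.3, then 27.2 and 36.9, then 53.0 and 62.4 in the same order. Only its homozygous arrays exceeded the olfactory receptor level. Fzd4 differed by 0.77 ± 0.20 from wild type (adjusted p = 0.133) and by 0.86 ± 0.20 from heterozygous (0.0919), and neither passed; with the dim arrays at that level the homozygous arrays were at least 1.04-fold and 1.10-fold brighter. Under an intensity trend both passed, at 0.0485 and 0.0268.

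Fzd6, which acts in hair and tissue polarity, read 4.7 and 4.0 in wild type, 11.6 and 9.3 in heterozygous and 9.1 and 9.1 in homozygous arrays. The wild-type arrays were the low pair, and no array came near the olfactory receptor level, so no bound of the fold can be given. As measured, Fzd6 rose by 1.26 ± 0.18 from wild type to heterozygous (limma adjusted p = 0.0461), and the F test passed (0.0397), while the difference between homozygous and wild type was 1.07 ± 0.18 (adjusted p = 0.0583). The rise passed under 4 of 15 alternatives. It did not pass without any 1 array, with an adjusted p of 0.125 or 0.0662 when wild-type array 1 or 2 was left out, 0.169 or 0.154 for heterozygous array 1 or 2, and 0.160 for a homozygous array. With a pseudocount of 16, which damps low values, it was 0.38 on the log2 scale (adjusted p = 0.122).

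The other Frizzled probes were dim, except Fzd2, which exceeded the level on 3 arrays. Fzd1 read 38.0 and 38.8 in wild type, 24.7 and 16.7 in heterozygous and 32.0 and 46.6 in homozygous arrays, with -0.92 ± 0.26 between heterozygous and wild type (adjusted p = 0.247). Fzd8 read 15.3 and 17.0, then 11.8 and 7.8, then 15.2 and 18.7 in the same order. For both genes the heterozygous arrays were the low pair, without a call. Fzd2, Fzd5 and Fzd7 had overlapping values in at least 1 comparison and passed in none.

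Among the secreted inhibitors, Sfrp1, the Sfrp of ventricular zone progenitors, read 61.2 and 58.0 in wild type, 40.3 and 35.5 in heterozygous and 47.2 and 47.2 in homozygous arrays. No genotypes overlapped, and wild type was the only one above the olfactory receptor level. The difference between heterozygous and wild type was -0.66 ± 0.15 (limma adjusted p = 0.167), with wild type at least 1.14-fold brighter once the dim arrays were set at that level. Sfrp2, Sfrp4 and Sfrp5 were dim and passed in no comparison. Dkk1 read 55.9 and 63.8 in wild type, 60.1 and 49.4 in heterozygous and 43.3 and 46.3 in homozygous arrays. Its homozygous arrays were the low pair, at -0.42 ± 0.17 against wild type (adjusted p = 0.259). Dkk3, a divergent member of its family, was the steadiest, between 29.0 and 32.5 on all 6 arrays. Dkk2 had a blank on wild-type array 1 and otherwise read between 1.3 and 2.7.

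**Figure D2:**
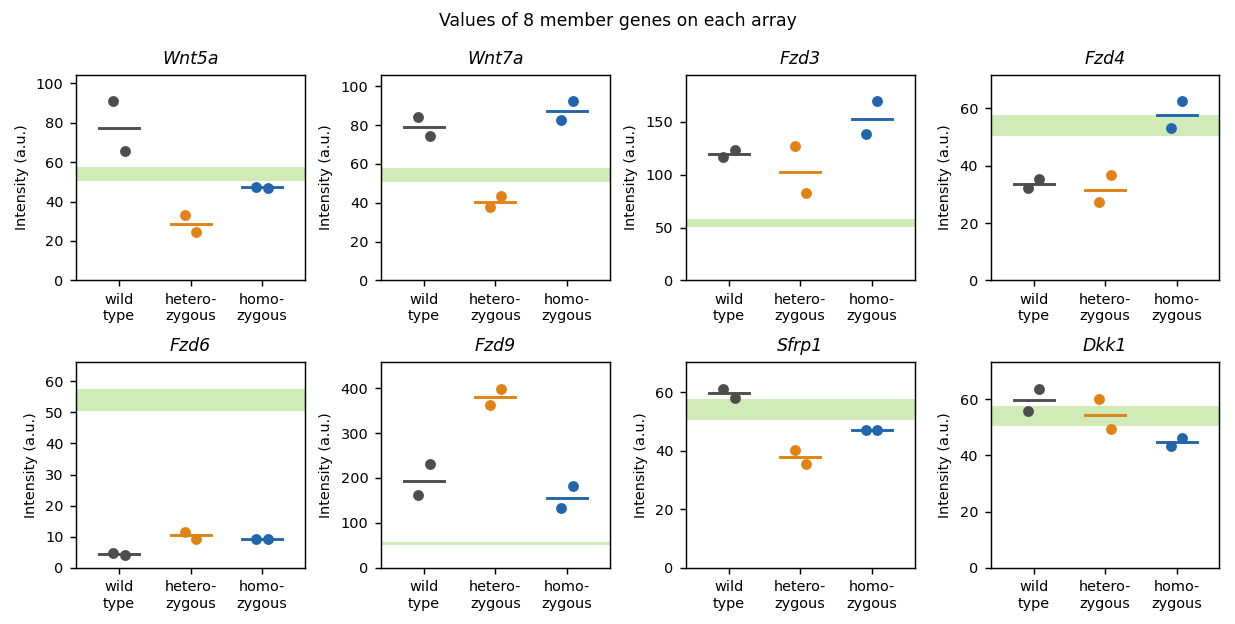
Intensity (arbitrary units, linear axes from 0) of 8 member genes on each array; points are arrays, horizontal lines are geometric means of 2 arrays, and the band is the olfactory receptor 95th percentile, 50.5 to 57.6. Heterozygous points are lowest for Wnt7a, Wnt5a and Sfrp1 and highest for Fzd9, and all Fzd6 points lie far below the band.

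Counted together, 0 of 31 tested members passed between homozygous and wild type with limma, where 0.92% of all 20434 probes were called. At an unadjusted p under 0.05 there were 7 members (22.6%), beside 19.0% of all probes. The same count was 11 (35.5%), beside 13.5%, between heterozygous and wild type, and 9 (29.0%), beside 18.2%, between homozygous and heterozygous. Between heterozygous and wild type 1 passed, Fzd6, or 3.23%, beside 0.749% of all probes, or 0.411% counting increases alone. Between homozygous and heterozygous 1 passed, Wnt7a, again 3.23%, beside 2.69% of all probes, or 1.26% counting increases alone. The F test called 2 members (6.45%), beside 2.26% of all probes. Counts of 1 or 2 genes are too small to set the members apart from other genes.

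The heterozygous geometric mean was the lowest of the 3 genotypes for 15 of 31 members, beside 34.9% of all probes. The homozygous mean was the highest for 15, a count for which the share of all probes was not computed. Between heterozygous and wild type, 20 of 31 members had a log2 fold change below 0, with a median of -0.14, beside 51.4% and -0.01 for all probes; other scalings left between 19 and 21 below 0. Between homozygous and heterozygous, 21 of 31 were above 0, with a median of 0.27, beside 11143 of 20434 and 0.04 for all probes. These comparisons share the heterozygous arrays. The medians rested much on heterozygous array 2: without it they were -0.05 and 0.07, and without heterozygous array 1 they were -0.39 and 0.39. Between homozygous and wild type the median was 0.03, and other scalings turned its sign.

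Genotypes that do not overlap were common over the whole array. This held for 16 of 31 members (51.6%) between homozygous and wild type, beside 50.5% of all probes. Between heterozygous and wild type it held for 15 (48.4%), beside 45.5%; 11 were lower in heterozygous (35.5%, beside 24.5% of all probes) and 4 higher (12.9%, beside 21.0%). Between homozygous and heterozygous it held for 19 (61.3%), beside 54.6%; 14 were higher in homozygous (45.2%, beside 28.7% of all probes) and 5 lower (16.1%, beside 25.9%). The totals lie near those of all probes, and the splits by direction lean to low heterozygous values. Both splits rest on the same heterozygous arrays and were not tested. Of the 11 members, only Wnt5a, Wnt7a and Sfrp1 exceeded the olfactory receptor level on any array. Of the 14, only Wnt5a, Wnt7a, Wnt11, Fzd3, Fzd4 and Sfrp1 did, so both splits hold many dim probes.

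**Figure D3:**
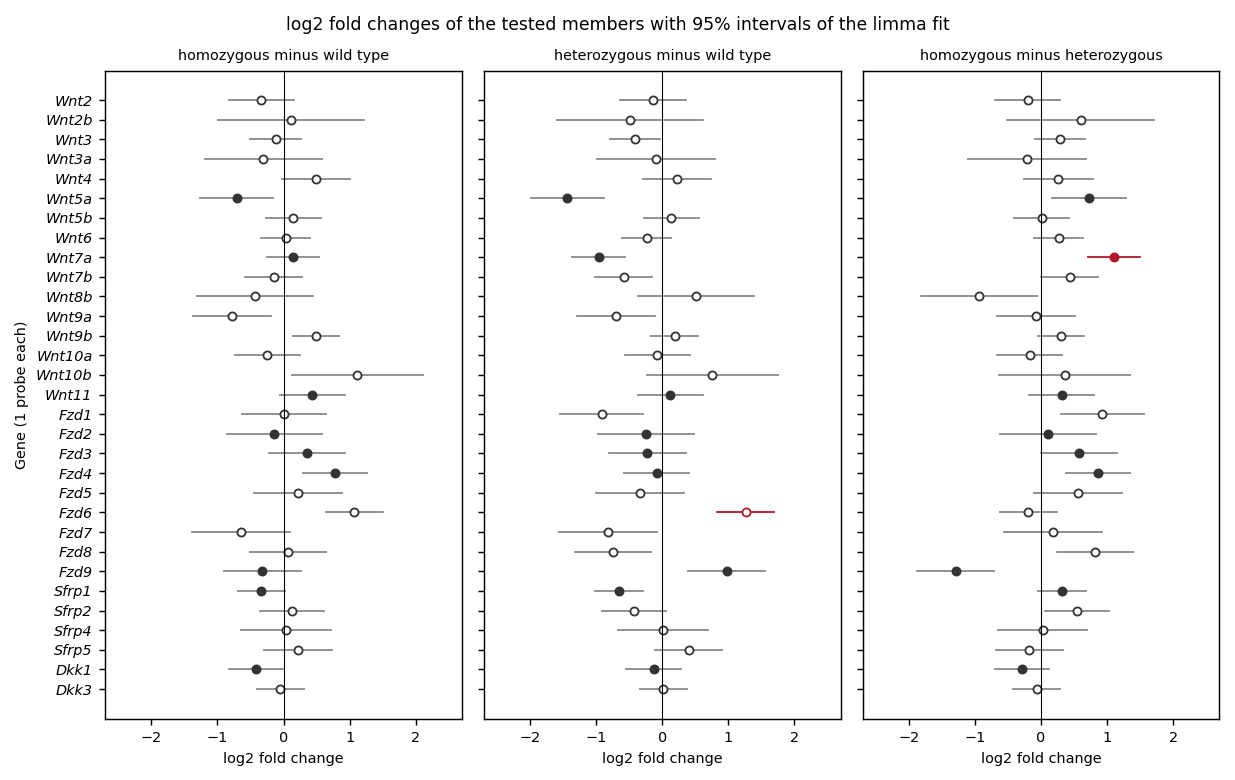
log2 fold change (points) with 95% interval of the limma fit (lines) for the 31 tested members in each comparison; red marks an adjusted p under 0.05, and filled points are probes above the olfactory receptor level on at least 1 array. Wnt7a between homozygous and heterozygous and Fzd6 between heterozygous and wild type are the calls, and Fzd9 lies furthest below 0 between homozygous and heterozygous.

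Other genes of the pathway are described by list. At an unadjusted p under 0.05 the shares of all probes were 19.0%, 13.5% and 18.2% between homozygous and wild type, heterozygous and wild type, and homozygous and heterozygous, and list counts follow in that order. Of 15 tested coreceptors and other receptors, which include Lrp5, Lrp6, Ror1, Ror2 and Ryk, none passed with limma in any comparison, while 3, 4 and 4 had an unadjusted p under 0.05 (20.0%, 26.7% and 26.7%). Adgra2 and Reck, the partners through which Wnt7a acts on endothelium and named here for that role, were dim on every array. Adgra2 read 31.3 and 28.9 in wild type, 21.2 and 17.7 in heterozygous and 22.2 and 30.4 in homozygous arrays, without a call (heterozygous minus wild type, adjusted p = 0.291).

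Of 17 tested genes for Wnt secretion and other extracellular regulation, 2 passed between homozygous and wild type (11.8%, beside 0.92% of all probes) and 1 of them between heterozygous and wild type (5.88%, beside 0.749%). The IGF-binding protein gene Igfbp4 read 73.4 and 87.3 in wild type, 231.7 and 242.8 in heterozygous and 303.0 and 310.6 in homozygous arrays. It rose by 1.94 ± 0.16 from wild type to homozygous (limma adjusted p = 0.00905) and by 1.57 ± 0.16 to heterozygous (0.0156). Rspo1, which strengthens Wnt signals through Lgr receptors, fell by 1.61 ± 0.24 on the log2 scale from wild type to homozygous (adjusted p = 0.0472), from 13.1 and 11.9 to 5.1 and 3.3 on a dim probe. Wls, the carrier that takes Wnts to the cell surface, and the Wnt acyltransferase gene Porcn were above the olfactory receptor level on all 6 arrays, Wls between 699.8 and 1040.2 and Porcn between 89.8 and 111.4, and neither passed. The rise of Igfbp4 to homozygous did not pass without homozygous array 1 (adjusted p = 0.120) or 2 (0.136), and its rise to heterozygous still passed with wild-type array 2 left out (0.0416) but not with any other array left out (0.0738 to 0.125). Rspo1 passed under 5 of 15 alternatives, and under none that left out an array (0.0669 to 0.225); its log2 fold change ranged from -1.92 to -0.50, the latter with a pseudocount of 16.

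None of 22 intracellular transducers passed with limma, with 2, 1 and 0 at an unadjusted p under 0.05 (9.09%, 4.55% and 0%). Beta-catenin itself, Ctnnb1, read between 1085.9 and 1724.4. None of 24 beta-catenin target genes passed either, with 1, 5 and 9 at an unadjusted p under 0.05 (4.17%, 20.8% and 37.5%). Their median log2 fold changes were 0.06, -0.08 and 0.03. Axin2, a widely used target gene, was dim, between 3.3 and 7.6, while Nkd1, a feedback inhibitor, was bright, at 759.0 and 673.4 in wild type, 371.9 and 531.6 in heterozygous and 597.1 and 707.6 in homozygous arrays. The heterozygous arrays of Nkd1 were the low pair, without a call (-0.69 ± 0.22 against wild type, adjusted p = 0.288). In that comparison the other targets with an unadjusted limma p under 0.05, Sp8, Lgr5, Id2 and Mitf, were higher in heterozygous arrays. Of these only Id2 was above the olfactory receptor level, at 828.8 and 672.2 in wild type and 1160.5 and 1027.8 in heterozygous arrays. Axin2, Nkd1, Ctnnb1 and these other targets were named after their values were seen.

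In the planar polarity and calcium branch 2 of 26 tested genes rose between heterozygous and homozygous and none fell (7.69%, beside 2.69% of all probes called). The Dishevelled-binding protein gene Dact1 read 76.6 and 61.2 in wild type, 49.6 and 54.1 in heterozygous and 157.0 and 141.1 in homozygous arrays, a rise of 1.52 ± 0.17 from heterozygous (limma adjusted p = 0.0143). The core polarity gene Vangl2 read 41.8 and 37.7, then 32.5 and 36.8, then 78.0 and 82.0, a rise of 1.21 ± 0.15 as measured (adjusted p = 0.0188). Its wild-type and heterozygous values were dim, and with the heterozygous arrays set at the olfactory receptor level the homozygous arrays were at least 1.53-fold brighter. In both genes the homozygous arrays were the high pair and lay above the olfactory receptor level. Their differences from wild type, 1.12 ± 0.17 and 1.01 ± 0.15, missed the threshold (adjusted p = 0.0532 and 0.0516). The list's median between heterozygous and homozygous was -0.05. Neither call passed when a heterozygous or homozygous array was left out: the adjusted p was 0.0821 to 0.128 for Dact1 and 0.0963 to 0.172 for Vangl2.

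**Figure D4:**
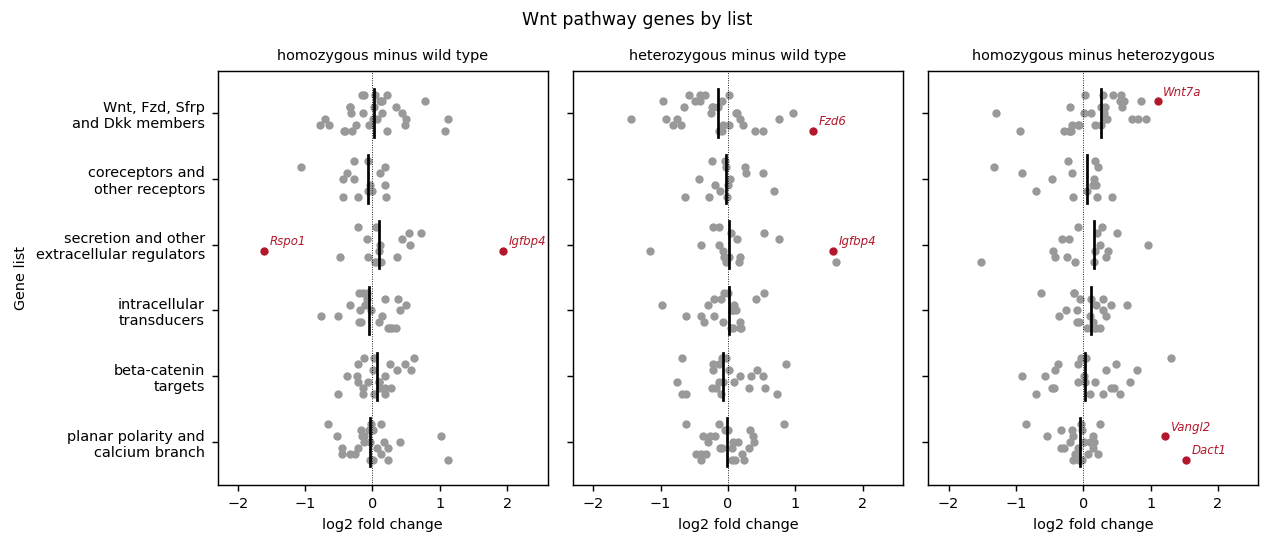
log2 fold change of each tested gene (points) in the members as 1 list and in 5 other lists of the Wnt pathway, by comparison; red points with names passed an adjusted p under 0.05, and vertical bars are list medians. Calls are few in each list, and medians lie between -0.14 and 0.27.

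Markers of other cell types also differed between genotypes. The summed intensity of 14 fibroblast and meningeal markers was 1662.3 and 1376.5 in wild type, 759.6 and 732.4 in heterozygous and 443.2 and 501.4 in homozygous arrays, mostly through the smooth muscle actin gene Acta2. Without Acta2 it was 432.8 and 481.7, then 482.1 and 447.8, then 355.2 and 382.9. The full sum was highest in wild type, as Wnt5a and Sfrp1 were, and lowest in homozygous, while both of those genes were lowest in heterozygous. Of these markers 2 exceeded the olfactory receptor level on all 6 arrays; Col1a1, a collagen that defines fibroblasts, read 6.8 to 15.8.

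Of 14 neuron markers 2 exceeded that level throughout. Their sum without the brightest, Gap43, was 383.5 and 343.9 in wild type, 328.6 and 302.6 in heterozygous and 631.6 and 573.2 in homozygous arrays. With Gap43 it was 2141.5 and 2122.8, then 4111.0 and 5441.4, then 5440.8 and 5369.3. The first sum had its lowest arrays in heterozygous, as Wnt7a had, and the second in wild type. The first sum includes Ina, named after its values were seen, at 70.2 and 65.5, then 33.9 and 34.1, then 137.1 and 130.3. Ina was lower in heterozygous than in wild type and homozygous arrays (limma adjusted p = 0.0469 and 0.00407). Marker by marker, 8 of 14 were below 0 between heterozygous and wild type and 6 above, with a median of -0.07. The defining neuronal marker Tubb3 was dim, at 34.3 to 52.3. The 10 oligodendrocyte lineage markers summed to 10389.5 and 11111.8 in wild type, 12168.1 and 13807.1 in heterozygous and 14468.1 and 12151.0 in homozygous arrays. Without the brightest, Olig1, they summed to 3583.6 and 4178.7, then 4614.0 and 5126.6, then 4120.1 and 3645.4. The sum without Olig1 was mostly Olig2 and was highest in heterozygous, unlike Wnt7a, while in the full sum heterozygous and homozygous overlapped. Marker by marker, 6 of 10 were below 0 between heterozygous and wild type (median -0.12), beside 51.4% of all probes. Between homozygous and heterozygous 7 of 10 were above 0, beside 11143 of 20434 probes. Limma called 1 marker (10%) in each, lower in heterozygous both times, beside 0.749% and 2.69% of all probes. Ugt8a, chosen after its values were seen, was low in heterozygous arrays, at 13.0 and 11.0 against 30.7 to 46.9 on the other arrays.

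Of 10 astrocyte markers 5 exceeded the level throughout. Their sum was 10130.7 and 11349.7 in wild type, 9827.6 and 9638.7 in heterozygous and 9976.6 and 8934.9 in homozygous arrays. Without the brightest, Aldoc, it was 1758.6 and 2458.6, then 4213.6 and 4039.3, then 3685.9 and 3391.1. This sum was highest in heterozygous, as Fzd9 was, but higher in homozygous than in wild type, where Fzd9 overlapped. It includes Sparcl1, at 55.9 and 85.0 in wild type, 128.4 and 198.3 in heterozygous and 1324.9 and 1300.9 in homozygous arrays. Marker by marker, 7 of 10 had a log2 fold change below 0 between homozygous and wild type and 3 above, with a median of -0.19. Aqp4, the astrocyte water channel gene, read 10.2 and 16.2 in wild type, 66.8 and 45.5 in heterozygous and 14.3 and 8.0 in homozygous arrays. Its heterozygous arrays were the high pair, as in Fzd9, and so were those of Ndrg2; both fell from heterozygous to homozygous (limma adjusted p = 0.0333 and 0.0483), while the marker Sparcl1 rose (0.00869). The 5 endothelial markers summed to 164.3 and 217.0 in wild type, 96.6 and 82.1 in heterozygous and 143.4 and 96.9 in homozygous arrays. These sums came mostly through Flt1. The heterozygous arrays were lowest, as for Wnt7a and Wnt5a, but 96.6 lay next to the 96.9 of homozygous array 2. All 5 had a log2 fold change below 0 between heterozygous and wild type, beside 51.4% of all probes. All 5 were above 0 between homozygous and heterozygous, beside 11143 of 20434 probes. In these comparisons limma called 0, beside 0.749% and 2.69% of all probes. At an unadjusted p under 0.05 there were 2 and 0, beside 13.5% and 18.2% of all probes. On every array 4 of the 5 were dim. None of the 5, and none of the 7 microglial markers, exceeded the level on all 6 arrays. The part of these cell types in the Wnt and Frizzled values was not tested, and in RNA from whole cultures fewer cells of a type and less RNA per cell cannot be told apart.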

How the data were processed

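Total RNA was amplified to amino allyl aRNA and coupled to a dye, per the labels' protocols; the labels also name biotin, and which of them holds is unsettled. The authors deposited 1-colour intensity values with the same median on every array; background correction, scanner and the rule for blank cells: not given in the sources used here. Gene symbols came from the platform's annotation (16625 probes with 1 symbol, 0 with several, 6841 unnamed); 12620 were current in RefSeq of assembly GRCm38.p6, 3943 were replaced by their current symbol and 62 were kept.

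Intensities were log2-transformed without a pseudocount. Probes blank on no array, 20434 in number, entered a fit by limma 3.58.1 under R 4.3.3 (lmFit and eBayes) with 1 coefficient per genotype, with 3 residual and 3.27 prior degrees of freedom. Tests were two-sided, with Benjamini-Hochberg adjustment over all probes tested, at 0.05. Errors are standard errors of the fit. A bound of a fold sets dim arrays at their olfactory receptor level. For lists, the brightest probe of each gene was used.

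Members and lists were chosen with earlier results of these data known. Members given with full values were those past the threshold and the brightest of each family. Also given were the 3 highest and 3 lowest log2 fold changes per comparison among probes above the olfactory receptor level on both arrays of a genotype. Members named beyond those serve as examples. In the pathway lists up to 3 passing genes per list were given, and further genes are named as examples or where marked. In the marker lists some passing genes were not named, and those named serve as examples. On simulated data of 20434 probes for homozygous against wild type, 200 of them changed, the fit recovered 96% of probes changed by 3 log2 units, 74% by 2, 6% by 1 and 0% by 0.5. The simulated spread did not depend on intensity. Recovery under the adjustment also depends on the share of probes changed, so these shares need not hold for the real arrays. Alternatives were other scalings, a pseudocount, filters, priors, weights, a replicate block and leaving out each array; those of pathway and marker genes were chosen after seeing the data.

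Replicate numbers were checked for pairing: deviations from the genotype mean of same-numbered arrays correlated at 0.016, 0.0100 and -0.076, so the numbers were not taken to pair arrays.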

Additional observations from a re-analysis of the deposited data

How the results depend on the processing

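The count of members passing was recomputed under every alternative. Between homozygous and wild type it was 0, and became 1 with a pseudocount of 16 or over probes above the olfactory receptor level. It became 2 with an intensity trend and robust prior. Fzd4 was the brighter-probe call here, and was also among those between homozygous and heterozygous and in the F test. Fzd4 meets that filter only through homozygous, where it is high. Between heterozygous and wild type the count was 1, and became 4 with the trend, 3 over the brighter probes and 2 with the pseudocount. Of the brighter-probe calls, Wnt5a and Sfrp1 meet that filter only through wild type, where they are high. The count became 0 with blank cells filled, array weights, only the arrays compared or the replicate block, and was 0 without any 1 array. Between homozygous and heterozygous it was 1, and became 4 with the trend, 3 with the pseudocount, the brighter probes or array weights, and 2 under each other scaling or with only the arrays compared. It became 0 with blanks filled or the replicate block, and lay between 0 and 2 without 1 array. The F test count of 2 (Fzd6 and Wnt7a) stayed 2 under median centring with Fzd9 in place of Wnt7a, became 5 with the pseudocount, trend or brighter probes, 1 under quantile scaling and 0 with blanks filled or the replicate block, and lay between 0 and 1 without 1 array. Members above background on all 6 arrays numbered 2, or 1 against the 99th percentile and 9 against each array's median. Wnt7a kept its direction under all 16 alternatives between homozygous and heterozygous.

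With the replicate block, Wnt7a had an adjusted p of 0.0723 between homozygous and heterozygous and Fzd6 0.0840 between heterozygous and wild type. Over all probes, calls between homozygous and wild type, 188, were 47 with the block, 59 with only the arrays compared, 89 with weights, 88 with blanks filled, 314, 328 and 313 under median centring, quantile and cyclic loess scaling, 875 over brighter probes, 1094 with the trend, 1143 with the pseudocount and 1 to 224 without 1 array. Between heterozygous and wild type, 153 became 51 with the block, 40, 100, 306 and 400 with only the arrays compared, weights, the pseudocount and the trend, and 18 to 340 without 1 array. Between homozygous and heterozygous, 549 became 244 with the block, 320 with blanks filled, 998, 1261, 1357 and 1376 over brighter probes, with weights, the trend and the pseudocount, and 6 to 680 without 1 array. Small log2 fold changes between heterozygous and wild type turned in sign: Dkk1 ranged from -0.27 to 0.0092, Fzd3 from -0.54 to 0.088 and Fzd4 from -0.31 to 0.13 without 1 array. Leaving out an array leaves a lone array that is assumed to vary like the other genotypes. Where a count changed, the cause was not tested. Signal over background limits the dim probes. In the simulation at this number of arrays, with 200 of 20434 probes changed, 6% of probes changed by 1 log2 unit were recovered between homozygous and wild type. This share need not hold for the real arrays.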
